A study of Mus musculus with 16 samples.

Results

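The genes described here are 41 that were listed by name: Myc and 40 factors that build ribosomes. Of the 41, 40 had a row among the 24421 genes of the deposited expression table, matched by gene symbol, and Noc2l was not analysed here. All 40 passed the filter on low values, and the lowest held 61 reads in its lowest library (Fbl). They lie on 17 chromosomes.

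A ribosome is assembled from ribosomal RNA and many ribosomal proteins, and most of that work takes place in the nucleolus. RNA polymerase I transcribes the long precursor of ribosomal RNA, small nucleolar ribonucleoproteins (snoRNPs) modify it, the small subunit processome folds and cuts the part that becomes the small subunit, and a separate set of factors matures the large subunit. Myc is a transcription factor that binds DNA with its partner Max, often at the sequence CACGTG (an E-box), and is known to drive many of these genes in growing cells. In the intestine Myc and active nucleoli are features of the dividing cells of the crypts.

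RNA was sequenced from whole colon of C57BL/6 mice of 8 weeks, with the RNA of 3 mice pooled in each library. F/F mice, labelled wild type, carry the floxed NCoR1 allele, and DIEC mice, labelled ko, lack NCoR1 in their intestinal epithelial cells; the sources used here do not give the promoter behind the deletion. NCoR1 is a corepressor that recruits histone deacetylase 3. Mice drank water (naive) or 2.5% dextran sulfate sodium (DSS), which injures the colon lining, and the DSS mice were taken on day 3, giving the 4 groups F/F naive, F/F DSS, DIEC naive and DIEC DSS with 4 libraries each. Spread between libraries is therefore spread between pools.

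Each library held between 19957413 and 34733832 reads on genes and was scaled by the authors to nearly the same sum, so values below are normalised read counts. Ncor1 stood at 3445 to 4078 in the 8 F/F libraries and at 1343 to 1979 in the 8 DIEC libraries, without overlap. All 15 epithelial markers were detected in every group and together held 2.32 to 3.26% of the reads on genes. Pancreatic acinar genes held up to 2.00% in DIEC naive 1 and 0.413% in F/F naive 4, against 0.326% or less elsewhere. On the principal component that held 11.3% of the variance DIEC DSS 3 stood apart from the rest of its group, at 60.4 against -8.6 to 17.2. Library numbers name pools and carry no order.

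Sequences around the start of 4 members are shown to let the letters be read beside values given below. Wdr43, Pes1 and Imp4 are examples of windows that hold an E-box, and Bysl is one that does not. Members that fell in both genotypes, such as Dkc1 and Nop56, also lacked it. Nop2, which held it, did not pass with DSS in F/F colon. Whether the E-box goes with the changes was not tested. The windows run from 250 bases before to 50 bases after the start of the gene, are taken from RefSeq on GRCm38.p6, and read 5′ to 3′ on the strand of the gene. Capitals mark CACGTG, which reads the same on both strands.

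Wdr43 (chr17:71615965-71616264, plus strand): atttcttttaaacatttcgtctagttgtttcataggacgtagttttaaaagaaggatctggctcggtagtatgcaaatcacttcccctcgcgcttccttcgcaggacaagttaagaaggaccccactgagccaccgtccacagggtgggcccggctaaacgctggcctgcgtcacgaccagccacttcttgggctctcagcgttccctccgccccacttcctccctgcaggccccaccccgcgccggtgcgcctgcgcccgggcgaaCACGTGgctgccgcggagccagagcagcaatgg

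Pes1 (chr11:3963725-3964024, plus strand): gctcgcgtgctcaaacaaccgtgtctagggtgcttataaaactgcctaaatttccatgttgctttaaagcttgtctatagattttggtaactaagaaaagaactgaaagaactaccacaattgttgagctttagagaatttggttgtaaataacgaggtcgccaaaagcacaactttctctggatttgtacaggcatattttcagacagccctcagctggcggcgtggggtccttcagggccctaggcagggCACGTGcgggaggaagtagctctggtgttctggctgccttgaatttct

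Imp4 (chr1:34439579-34439878, plus strand): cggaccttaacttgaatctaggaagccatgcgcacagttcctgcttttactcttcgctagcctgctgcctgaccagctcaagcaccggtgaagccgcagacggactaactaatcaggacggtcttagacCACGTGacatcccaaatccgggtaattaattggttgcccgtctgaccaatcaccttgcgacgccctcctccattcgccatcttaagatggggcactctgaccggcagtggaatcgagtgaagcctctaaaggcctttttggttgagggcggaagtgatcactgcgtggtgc

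Bysl (chr17:47611443-47611742, minus strand): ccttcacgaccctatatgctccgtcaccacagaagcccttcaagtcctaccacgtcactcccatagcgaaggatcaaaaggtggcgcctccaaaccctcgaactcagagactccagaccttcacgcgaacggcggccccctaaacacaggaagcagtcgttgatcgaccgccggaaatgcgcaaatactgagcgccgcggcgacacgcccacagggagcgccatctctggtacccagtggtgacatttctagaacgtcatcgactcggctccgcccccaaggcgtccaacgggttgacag

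The E-box begins at base 268 of the window of Wdr43, at base 253 in Pes1 and at base 130 in Imp4. A window was found for 33 of the 40 members. Of these, 7 (21.2%) held the E-box, beside 8.09% of 27025 genes with at least 1 window holding it. It lies after the start of the gene in Mybbp1a, Wdr43, Tsr1, Ltv1 and Pes1, and before that start in Imp4 and Nop2. The other 26 windows did not hold it. Of the 8 members whose DSS response is reported below to differ between the genotypes, Wdr43, Imp4 and Pes1 held it, Polr1b, Polr1c, Dkc1 and Wdr75 did not, and Npm1 was not matched. The match describes letters in a window of 300 bases and says nothing of binding.

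Across the 40 members, DSS lowered most transcripts in both genotypes. The fitted change was more negative in DIEC colon in 39 of 40, a difference that passed its test in 8 (3.34% of all genes). Over all genes tested the median of that difference was itself -0.16. In F/F colon 28 members fell and 1 rose, where 28.5% of all 18267 genes tested fell and 16.3% rose. In DIEC colon 39 fell and none rose, where 40.0% of all genes fell and 12.3% rose. Without DSS the deletion changed 0 of 40 members, where 1.41% of genes rose and 0.821% fell. Under DSS 34 members were lower in DIEC than in F/F colon and none was higher, where 26.0% of all genes were lower and 3.28% higher. The test was limma on log2(value + 1) over all 16 libraries, called at a Benjamini-Hochberg adjusted p under 0.05, and it gives every change below on that scale.

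The median log2 change over the members was -0.52 with DSS in F/F colon and -1.07 with DSS in DIEC colon, beside -0.11 and -0.24 over all genes tested. For the deletion the median was 0.00 in naive colon and -0.53 in DSS colon, beside -0.05 and -0.20 over all genes. For the difference between the DSS responses of the genotypes it was -0.49, beside -0.16 over all genes. The median of all genes was itself below 0 under the deposited scaling, most of all for DSS in DIEC colon. TMM scaling, which centres the libraries on the bulk of genes, took the median of all genes from -0.24 to -0.01 for DSS in DIEC colon and from -0.20 to -0.02 for the deletion in DSS colon. With it 26 members fell and 1 rose with DSS in F/F colon, beside 22.9% and 22.4% of all genes. With DSS in DIEC colon 34 fell and none rose, beside 26.6% and 24.8%. For the deletion in DSS colon 19 members were lower, beside 7.21%, and none was higher, beside 6.53%; for the deletion in naive colon there were 0, beside 0.673% lower and 1.74% higher. The 26, 34 and 19 were all among those called lower under the deposited scaling. The difference between the DSS responses had a median of -0.33 over the members with TMM scaling, beside -0.01 over all genes. It was negative in 39 of 40 members.

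**Figure D1:**
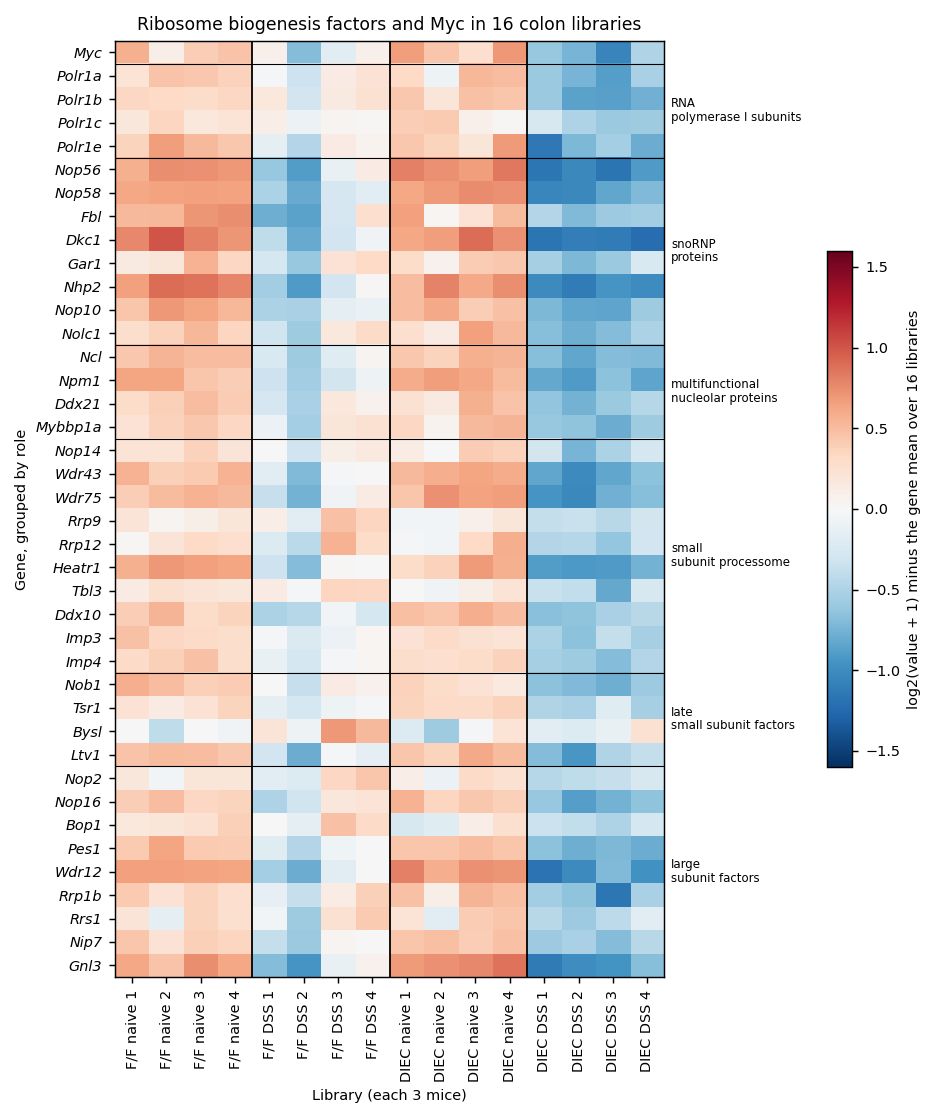
Each row is 1 of the 40 members, grouped by role, and each column 1 of the 16 libraries; colour gives the log2 normalised read count relative to the mean of the gene over all libraries. Naive libraries of both genotypes are high for most rows, F/F DSS libraries lie between, and the DIEC DSS libraries are low.

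Without a test, the groups can be set side by side library by library. Every F/F DSS library lay below every F/F naive library in 28 members, which held in 27.4% of all genes; in no member did it lie above, as 15.5% of all genes did. Every DIEC DSS library lay below every DIEC naive library in 39 members (35.9% of all genes), and in no member the reverse (9.59%). Between the genotypes under DSS, 22 members did not overlap, DIEC being lower in each (21.9% of all genes lower, 3.1% higher). In naive colon 1 member, Nob1, did not overlap, again with DIEC lower (6.37% of all genes lower, 4.33% higher).

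The members were expressed at very different levels. Per kilobase of gene model, mean normalised read counts in F/F naive colon ran from 73.0 for Rrp1b to 2088 for Npm1. After Npm1 came Nop10 at 1548, Imp3 at 1396 and Ncl at 1369. Myc stood at 321 per kilobase, and Fbl, the methyltransferase of box C/D snoRNPs, at 143.

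Myc itself (mm9 chromosome 15, 61816896 to 61821916, plus strand) stood at 871, 628, 773 and 805 in F/F naive pools 1 to 4 and at 617, 361, 518 and 621 in F/F DSS. In DIEC mice Myc stood at 929, 796, 704 and 947 without DSS and at 384, 350.1, 281 and 421 with it. In each genotype all DSS libraries lay below all naive ones, while F/F DSS and DIEC DSS overlapped. With DSS, Myc fell by 0.56 ± 0.17 (SE, adjusted p = 0.0101) in F/F colon and fell by 1.24 ± 0.17 (SE, adjusted p = 5.98e-06) in DIEC colon, a 2.36-fold fall in the latter. Under DSS it was lower in DIEC than in F/F colon, by 0.54 ± 0.17 (SE, adjusted p = 0.0203), a call that was not made with TMM scaling (adjusted p = 0.118) or without F/F DSS 1, F/F DSS 4 or DIEC DSS 3 (adjusted p = 0.0699 to 0.071). In naive colon its log2 change with the deletion was 0.13 ± 0.17 (SE, adjusted p = 0.762). In bulk tissue, fewer cells of a type and less RNA per cell cannot be told apart, for Myc or any gene below.

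Of the 4 measured subunits of RNA polymerase I, 2 fell with DSS in F/F colon (28.5% of all genes) and 4 in DIEC colon (40.0%). With TMM scaling 1 fell in F/F colon (22.9% of all genes) and 4 in DIEC colon (26.6%). No fitted change of the 4 with DSS was above 0. Polr1b, the second-largest subunit (mm9 chromosome 2, 128926732 to 128952331), stood at 646, 638, 630.2 and 647 in F/F naive and at 575, 415, 565 and 609 in F/F DSS. Polr1b was measured at 694, 587, 711 and 698 in DIEC naive, and values in DIEC DSS were 339.8, 282, 281 and 300.1. The 4 DIEC DSS libraries were the lowest of all 16, and the other groups were closer together. Polr1b fell by 1.16 ± 0.11 (SE, adjusted p = 7.23e-08) with DSS in DIEC colon, while its change in F/F colon, -0.26 ± 0.11 (SE, adjusted p = 0.0606), did not pass although the groups did not overlap. Under DSS it was lower in DIEC colon by 0.83 ± 0.11 (SE, adjusted p = 4.1e-05).

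Polr1e, which forms a dimer at the edge of the polymerase (mm9 chromosome 4, 45031481 to 45047151), stood at 318, 396, 356 and 336 in F/F naive and at 223, 179.7, 271 and 258 in F/F DSS. The DIEC naive pools held 335, 318, 283 and 399, and the DIEC DSS pools 112, 151, 171 and 143. Naive libraries were above DSS libraries in each genotype without overlap, and DIEC DSS lay below F/F DSS. Polr1e fell by 0.61 ± 0.15 (SE, adjusted p = 0.00263) in F/F and fell by 1.21 ± 0.15 (SE, adjusted p = 1.4e-06) in DIEC colon. Polr1a, the largest subunit, fell by 0.37 ± 0.13 (SE, adjusted p = 0.0309) in F/F colon, where the groups overlapped, the call was not made with TMM scaling (adjusted p = 0.0803), and it was lost on leaving out F/F naive 2, 3 or 4 or F/F DSS 1 or 2 (adjusted p = 0.0542 to 0.126). In DIEC colon it fell by 1.00 ± 0.13 (SE, adjusted p = 4.11e-06). Polr1c, which polymerases I and III share, changed by -0.21 ± 0.10 (SE, adjusted p = 0.0834) in F/F colon, which did not pass, and fell by 0.71 ± 0.10 (SE, adjusted p = 4.29e-06) in DIEC colon. In naive colon none of the 4 passed, with log2 changes of -0.08 to 0.07.

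**Figure D2:**
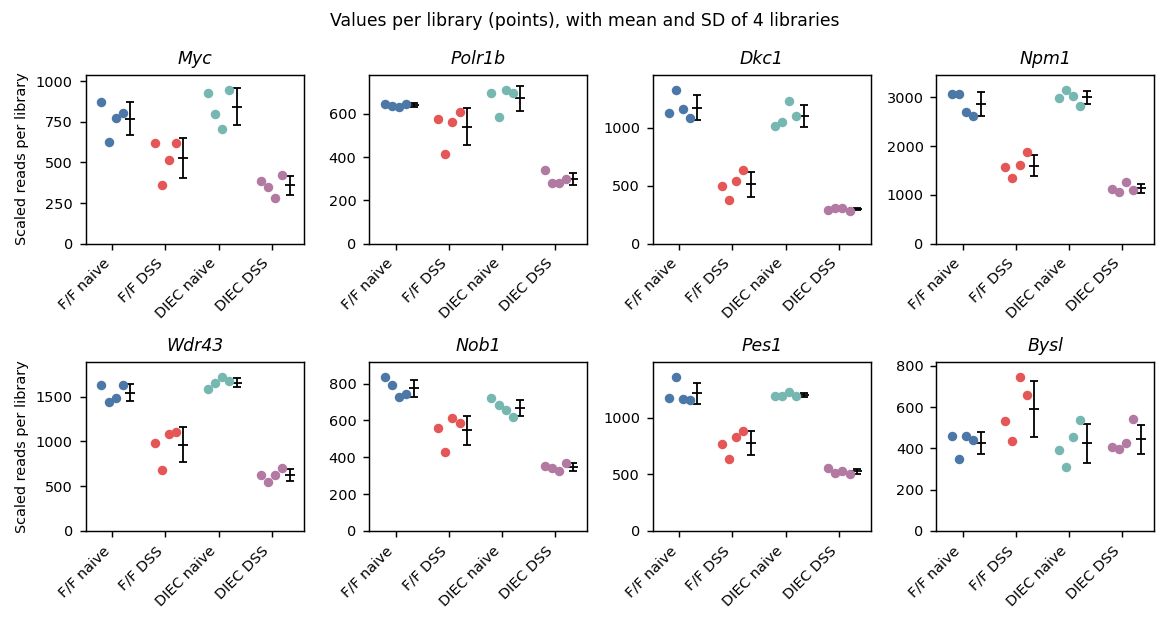
Normalised read counts (vertical axes from 0) of 8 members in each library (points) of the 4 groups, with the group mean and SD. Myc, Dkc1, Npm1 and Wdr43 fall with DSS in both genotypes without overlap, and Polr1b is lowest in DIEC DSS, at 281 to 340.

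The 8 snoRNP proteins had the most negative medians of the role groups, with log2 changes of -1.04 in F/F and -1.42 in DIEC colon. Of these, 7 fell in F/F colon (28.5% of all genes) and 8 in DIEC colon (40.0%). Dkc1, the pseudouridine synthase of box H/ACA snoRNPs (mm9 chromosome X, 72341193 to 72355115), stood at 1129.7, 1326, 1159 and 1080.0 in F/F naive and at 499, 377, 537 and 637 in F/F DSS. In DIEC mice Dkc1 stood at 1016, 1051, 1228 and 1104 without DSS and at 293, 308, 304 and 284 with it. Each DSS group lay wholly below its naive group and DIEC DSS wholly below F/F DSS. Dkc1 fell by 1.22 ± 0.12 (SE, adjusted p = 8.72e-07), or 2.32-fold, in F/F colon and fell by 1.88 ± 0.12 (SE, adjusted p = 2.85e-09), or 3.68-fold, in DIEC colon. Of its partners in the H/ACA particle, Nhp2 fell by 1.24 ± 0.14 (SE, adjusted p = 1.99e-06) in F/F colon and fell by 1.68 ± 0.14 (SE, adjusted p = 1.75e-08) in DIEC colon, and Nop10 fell by 0.90 ± 0.10 (SE, adjusted p = 2.53e-06) in F/F colon and fell by 1.23 ± 0.10 (SE, adjusted p = 2e-08) in DIEC colon. Gar1, the remaining partner, changed by -0.39 ± 0.17 (SE, adjusted p = 0.072) in F/F colon, which did not pass, and fell by 0.82 ± 0.17 (SE, adjusted p = 0.000458) in DIEC colon.

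Among the proteins of box C/D snoRNPs, which guide ribose methylation, Nop56 fell by 1.05 ± 0.16 (SE, adjusted p = 3.85e-05) in F/F colon and fell by 1.83 ± 0.16 (SE, adjusted p = 4.85e-08) in DIEC colon. Nop58 fell by 1.08 ± 0.11 (SE, adjusted p = 9.92e-07) in F/F colon and fell by 1.61 ± 0.11 (SE, adjusted p = 3.62e-09) in DIEC colon. Both genes host small nucleolar RNAs on the same strand, whose reads could add to theirs. Fbl, the methyltransferase (mm9 chromosome 7, 28954767 to 28964288), stood at 152, 153, 173 and 179 in F/F naive and at 61.4, 58.1, 87.7 and 128 in F/F DSS. Fbl was measured at 167, 108, 125 and 151 in DIEC naive, and values in DIEC DSS were 76.1, 64.8, 70.8 and 72.0. DSS libraries were below naive ones in each genotype, and the genotypes overlapped under both drinks. Fbl fell by 1.03 ± 0.20 (SE, adjusted p = 0.000391) in F/F colon and fell by 0.93 ± 0.20 (SE, adjusted p = 0.000636) in DIEC colon, and it was the only 1 of 40 members whose fitted change with DSS was less negative in DIEC than in F/F colon; that difference was 0.10 ± 0.29 (SE, adjusted p = 0.887) and did not pass. Nolc1, a chaperone of snoRNPs, fell by 0.48 ± 0.16 (SE, adjusted p = 0.0207) in F/F colon with overlapping groups, a call lost without F/F naive 3, F/F DSS 1 or F/F DSS 2 (adjusted p = 0.0589 to 0.0668), and fell by 1.06 ± 0.16 (SE, adjusted p = 2.94e-05) in DIEC colon.

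All 4 multifunctional nucleolar proteins fell in both genotypes, where 28.5% of all genes fell in F/F colon and 40.0% in DIEC colon. Npm1, nucleophosmin, a histone and ribosome chaperone (mm9 chromosome 11, 33052498 to 33063206), stood at 3072, 3073, 2687 and 2608 in F/F naive and at 1570.3, 1343, 1611 and 1871 in F/F DSS. The DIEC naive pools held 2988, 3149, 3029.6 and 2809.8, and the DIEC DSS pools 1125, 1054, 1254 and 1099. The groups were ordered without overlap, naive above F/F DSS above DIEC DSS, and both naive groups overlapped each other. Npm1 fell by 0.85 ± 0.09 (SE, adjusted p = 1.55e-06) in F/F and fell by 1.40 ± 0.09 (SE, adjusted p = 2.85e-09) in DIEC colon, a 2.64-fold fall in the latter. Ncl, nucleolin, which binds the ribosomal RNA precursor, fell by 0.73 ± 0.10 (SE, adjusted p = 9.09e-06) in F/F colon and fell by 1.20 ± 0.10 (SE, adjusted p = 1.29e-08) in DIEC colon. Its gene also hosts RNAs on its own strand. Ddx21, an RNA helicase of the nucleolus, fell by 0.53 ± 0.13 (SE, adjusted p = 0.00218) in F/F colon and fell by 0.96 ± 0.13 (SE, adjusted p = 4.32e-06) in DIEC colon. Mybbp1a fell by 0.40 ± 0.14 (SE, adjusted p = 0.029) in F/F colon with overlapping groups, not with TMM scaling (adjusted p = 0.0655) and not on leaving out F/F naive 2, 3 or 4 or F/F DSS 1 or 2 (adjusted p = 0.0522 to 0.102), and fell by 1.02 ± 0.14 (SE, adjusted p = 8.91e-06) in DIEC colon.

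Of 10 factors of the small subunit processome 6 fell in F/F colon (28.5% of all genes) and 10 in DIEC colon (40.0%). Wdr43, a subunit of the part that first joins the ribosomal RNA precursor (mm9 chromosome 17, 71965555 to 72008371), stood at 1625, 1438, 1485 and 1633 in F/F naive and at 982, 677, 1086 and 1106 in F/F DSS. In DIEC mice Wdr43 stood at 1585, 1649.7, 1716 and 1675 without DSS and at 624, 547, 621 and 703 with it. DSS libraries were below naive libraries in each genotype, while F/F DSS 2 lay within the range of DIEC DSS. Wdr43 fell by 0.71 ± 0.12 (SE, adjusted p = 0.000103) in F/F colon and fell by 1.41 ± 0.12 (SE, adjusted p = 2.37e-08) in DIEC colon.

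Ddx10, a helicase (mm9 chromosome 9, 52906559 to 53056217), stood at 865, 955, 809.5 and 841 in F/F naive and at 461, 479, 637 and 542 in F/F DSS. Ddx10 was measured at 921, 892, 982 and 930.1 in DIEC naive, and values in DIEC DSS were 413, 419, 457 and 482. It was lower with DSS in each genotype without overlap, and F/F DSS and DIEC DSS overlapped. Ddx10 fell by 0.72 ± 0.10 (SE, adjusted p = 1.11e-05) in F/F colon and fell by 1.07 ± 0.10 (SE, adjusted p = 4.38e-08) in DIEC colon, and between the genotypes under DSS its change of -0.25 ± 0.10 (SE, adjusted p = 0.058) did not pass.

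Imp3 and Imp4 bind the U3 small nucleolar RNA at the core of the processome. Imp3 (mm9 chromosome 9, 56785307 to 56786205) stood at 1359.9, 1233, 1218 and 1194 in F/F naive, 963, 839, 919.9 and 1002 in F/F DSS, 1151, 1211, 1166 and 1139.8 in DIEC naive and 691, 625, 754 and 676 in DIEC DSS. Imp4 (mm9 chromosome 1, 34496674 to 34502592) stood at 1297, 1369, 1459.7 and 1283 in F/F naive, 969, 867, 1040.4 and 1079 in F/F DSS, 1279, 1265, 1293 and 1360.3 in DIEC naive and 727, 712, 649.8 and 759 in DIEC DSS. Both had the same order without overlap, naive above F/F DSS above DIEC DSS. Imp3 fell by 0.43 ± 0.08 (SE, adjusted p = 0.000165) in F/F and fell by 0.77 ± 0.08 (SE, adjusted p = 1.22e-07) in DIEC colon. Imp4 fell by 0.45 ± 0.08 (SE, adjusted p = 0.000117) in F/F colon and fell by 0.87 ± 0.08 (SE, adjusted p = 4.34e-08) in DIEC colon.

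Heatr1 fell by 0.89 ± 0.13 (SE, adjusted p = 1.86e-05) in F/F and fell by 1.35 ± 0.13 (SE, adjusted p = 6.42e-08) in DIEC colon, and Wdr75 fell by 0.75 ± 0.14 (SE, adjusted p = 0.000268) in F/F colon and fell by 1.49 ± 0.14 (SE, adjusted p = 8.65e-08) in DIEC colon; in yeast their counterparts, like that of Wdr43, act in the same early subcomplex. The other 4 processome members did not pass in F/F colon. There Nop14 changed by -0.27 ± 0.12 (SE, adjusted p = 0.0843), Rrp12 by -0.15 ± 0.18 (SE, adjusted p = 0.522), Rrp9 by 0.05 ± 0.11 (SE, adjusted p = 0.739) and Tbl3 by 0.00 ± 0.11 (SE, adjusted p = 0.993). In DIEC colon these fell by 0.67, 0.67, 0.42 and 0.52, of which Rrp12 (adjusted p = 0.0512) and Rrp9 (adjusted p = 0.175) did not pass with TMM scaling.

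The 4 late factors of the small subunit, which act as it leaves the nucleolus, held the one member that rose. Ltv1 (mm9 chromosome 10, 12898444 to 12912943), an assembly factor of the particle exported to the cytoplasm, stood at 1021, 1053, 1043 and 1002 in F/F naive and at 599, 429, 726 and 665 in F/F DSS. The DIEC naive pools held 1015, 953, 1134 and 1059, and the DIEC DSS pools 458, 390.3, 531 and 568. Naive libraries were above DSS libraries, and the genotypes overlapped under both drinks. Ltv1 fell by 0.79 ± 0.13 (SE, adjusted p = 0.000104) in F/F colon and fell by 1.11 ± 0.13 (SE, adjusted p = 1.29e-06) in DIEC colon, and under DSS its change with the deletion was -0.30 ± 0.13 (SE, adjusted p = 0.101), which did not pass.

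Tsr1, a GTPase-like factor (mm9 chromosome 11, 74711582 to 74722842), stood at 2856, 2677, 2860.4 and 3131 in F/F naive, 2192, 2001, 2299.7 and 2392 in F/F DSS, 3139, 3016, 3023 and 3147 in DIEC naive and 1744, 1708, 2142 and 1693 in DIEC DSS. DSS libraries lay below naive ones in each genotype, and DIEC DSS 3 lay among the F/F DSS libraries. Tsr1 fell by 0.38 ± 0.08 (SE, adjusted p = 0.000823) in F/F colon and fell by 0.77 ± 0.08 (SE, adjusted p = 2.34e-07) in DIEC colon. Nob1, the nuclease that makes the last cut of the small ribosomal RNA (mm9 chromosome 8, 109936389 to 109948938), stood at 834, 789, 729 and 741 in F/F naive, 557, 431, 611 and 585 in F/F DSS, 723, 682, 655 and 620.4 in DIEC naive and 353, 340.4, 324 and 371 in DIEC DSS. All 4 groups were apart. Nob1 fell by 0.51 ± 0.10 (SE, adjusted p = 0.000379) in F/F colon and fell by 0.95 ± 0.10 (SE, adjusted p = 2.6e-07) in DIEC colon, and its change with the deletion in naive colon, -0.21 ± 0.10 (SE, adjusted p = 0.363), did not pass.

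Bysl, whose yeast counterpart binds the small subunit precursor, is named because of its values. It stood at 458, 348, 460.2 and 442 in F/F naive and at 532, 437, 745 and 658 in F/F DSS. In DIEC mice Bysl stood at 395, 310.3, 456 and 536 without DSS and at 407, 397, 425 and 545 with it. F/F DSS 3 and F/F DSS 4 were the highest of the 16, while F/F DSS 2 lay within the naive range. Bysl rose by 0.45 ± 0.17 (SE, adjusted p = 0.0421) in F/F colon, a call lost on leaving out any of the 4 F/F naive libraries, F/F DSS 3, F/F DSS 4 or DIEC naive 1 (adjusted p = 0.0503 to 0.142), and its change in DIEC colon was 0.08 ± 0.17 (SE, adjusted p = 0.731), which did not pass. The difference between those changes, -0.37 ± 0.25 (SE, adjusted p = 0.398), did not pass either. Exons of Bysl overlap exons of Ccnd3, a D-type cyclin, on the opposite strand. Ccnd3 rose by 0.54 ± 0.09 (SE, adjusted p = 8.04e-05) in F/F colon and by 0.49 ± 0.09 (adjusted p = 0.000124) in DIEC colon. Whether its reads entered the count of Bysl was not tested. Exons of Nop56, Dkc1, Heatr1 and Gnl3 likewise overlap those of Idh3b, Mpp1, Lgals8 and Pbrm1. With DSS in F/F and DIEC colon Idh3b fell by 0.32 and 0.72, and Pbrm1 fell by 0.30 and 0.53. Mpp1 passed in neither genotype, and Lgals8 passed in DIEC colon alone, at -0.19. Whether their reads entered those counts was not tested.

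Of 9 measured factors of the large subunit 5 fell in F/F colon (28.5% of all genes) and 9 in DIEC colon (40.0%). Pes1, Bop1 and Wdr12 form the PeBoW complex; in F/F colon Pes1 and Wdr12 fell, and Bop1 did not pass. Pes1 (mm9 chromosome 11, 3863978 to 3880007) stood at 1176, 1360.1, 1169 and 1159.5 in F/F naive, 769, 632, 834 and 883 in F/F DSS, 1195, 1193, 1233 and 1192 in DIEC naive and 554, 511, 533 and 506 in DIEC DSS. Naive libraries lay above F/F DSS libraries and these above DIEC DSS libraries. Pes1 fell by 0.65 ± 0.09 (SE, adjusted p = 1.53e-05) in F/F colon and fell by 1.19 ± 0.09 (SE, adjusted p = 8.82e-09) in DIEC colon, and Wdr12 fell by 1.03 ± 0.15 (SE, adjusted p = 1.85e-05) in F/F colon and fell by 1.67 ± 0.15 (SE, adjusted p = 3.19e-08) in DIEC colon.

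Bop1 (mm9 chromosome 15, 76283426 to 76307699) stood at 1414, 1436, 1486 and 1634 in F/F naive and at 1244, 1123, 1729 and 1545 in F/F DSS. Bop1 was measured at 1053, 1096, 1347 and 1496 in DIEC naive, and values in DIEC DSS were 984, 954, 892 and 1028. The F/F groups overlapped, whereas DIEC DSS lay below both DIEC naive and F/F DSS. Its change with DSS in F/F colon was -0.10 ± 0.12 (SE, adjusted p = 0.547), which did not pass. It fell by 0.36 ± 0.12 (SE, adjusted p = 0.0207) in DIEC colon, a call not made with TMM scaling (adjusted p = 0.474) or without DIEC naive 3, DIEC naive 4 or DIEC DSS 3 (adjusted p = 0.0555 to 0.0849). The log2 difference between Bop1's responses was -0.26 ± 0.18 (SE, adjusted p = 0.412) and did not pass.

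Gnl3, nucleostemin, a GTPase of stem and tumour cells, fell by 1.03 ± 0.17 (SE, adjusted p = 0.00011) in F/F and fell by 1.70 ± 0.17 (SE, adjusted p = 2.87e-07) in DIEC colon, where the fall was 3.25-fold. Its gene also hosts RNAs on its own strand. Nip7 fell by 0.59 ± 0.11 (SE, adjusted p = 0.000365) in F/F colon and fell by 1.01 ± 0.11 (SE, adjusted p = 5.55e-07) in DIEC colon, and Nop16 fell by 0.50 ± 0.13 (SE, adjusted p = 0.00385) in F/F colon and fell by 1.15 ± 0.13 (SE, adjusted p = 4.98e-07) in DIEC colon. Rrp1b, Rrs1 and Nop2, a methyltransferase of ribosomal RNA, did not pass in F/F colon, with changes of -0.32, -0.16 and -0.04, and fell in DIEC colon by 1.12, 0.63 and 0.51. With TMM scaling Rrs1 (adjusted p = 0.0655) and Nop2 (adjusted p = 0.0724) did not pass there.

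**Figure D3:**
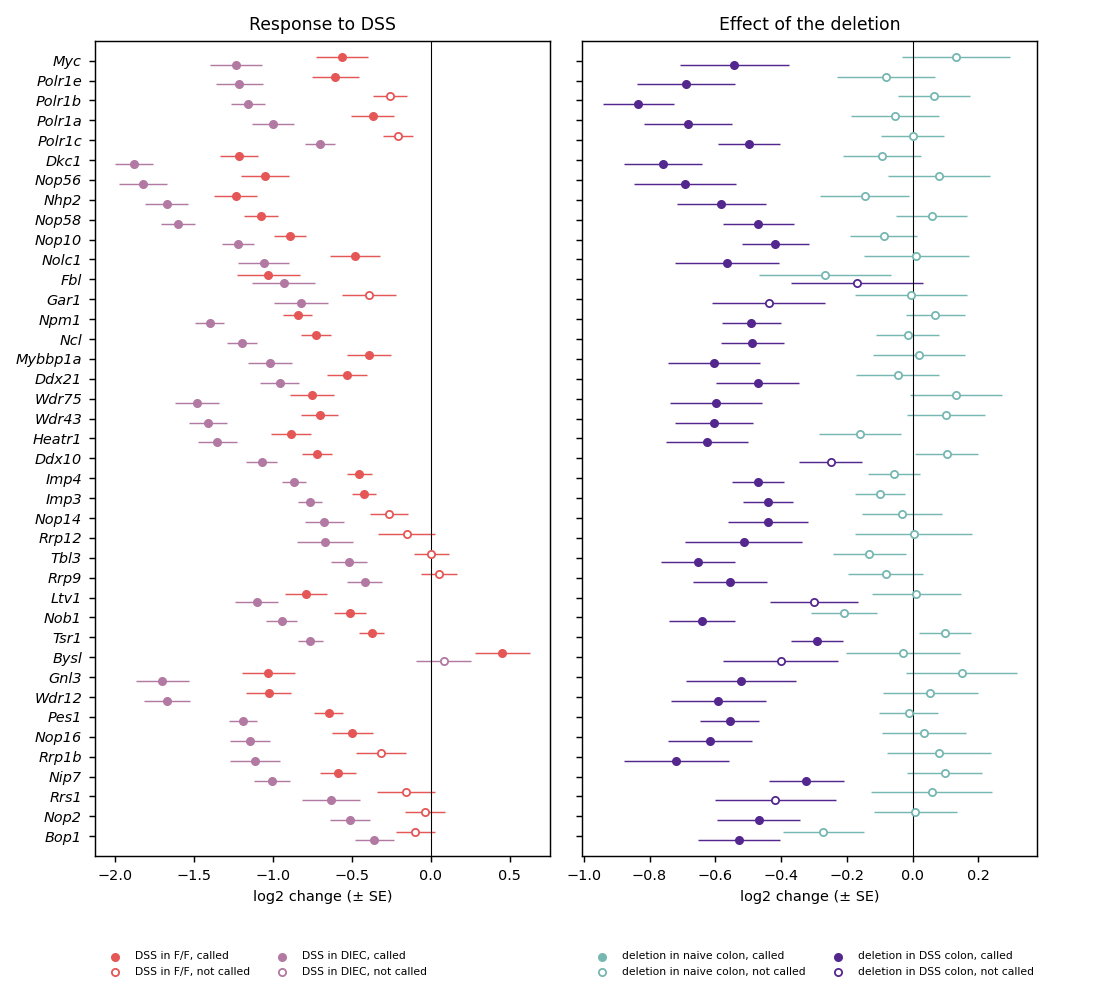
Log2 change ± SE (horizontal axes) of each of the 40 members (rows), on the left with DSS in F/F and in DIEC colon and on the right with the deletion, in naive colon and under DSS; filled points passed at an adjusted p under 0.05. The changes with the deletion in naive colon lie between -0.27 and 0.15, and all 40 changes with the deletion in DSS colon lie below 0.

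The deletion without DSS left the members near the F/F level. Log2 changes ran from -0.27 for Bop1 to 0.15 for Gnl3, and 19 of 40 were negative. Limma, TMM-scaled limma, voom, edgeR and DESeq2 each called 0 of 40 in either direction, and at an unadjusted p under 0.05 limma had 1 lower, Bop1 (-0.27 ± 0.12 (SE, adjusted p = 0.337)), and none higher. SEs of 0.08 to 0.20 go with these changes, which do not show that the levels were equal.

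Under DSS the deletion went with lower levels in all 40 members, of which 34 passed. The members that did not pass were Fbl, Ltv1, Rrs1, Bysl, Gar1 and Ddx10. All 4 polymerase I subunits and all 4 multifunctional nucleolar proteins were lower in DIEC colon, along with Myc, 6 of 8 snoRNP proteins, 9 of 10 processome factors, 2 of 4 late small subunit factors and 8 of 9 large subunit factors, beside the 26.0% of all genes. With TMM scaling, and beside 7.21% of all genes, these counts were 4 of 4 polymerase I subunits, 3 of 4 multifunctional proteins, 2 of 8 snoRNP proteins, 6 of 10 processome factors, 1 of 4 late factors and 3 of 9 large subunit factors, without Myc. Polr1b differed by -0.83 ± 0.11 (SE, adjusted p = 4.1e-05), Dkc1 by -0.76 ± 0.12 (SE, adjusted p = 0.000219), Nob1 by -0.64 ± 0.10 (SE, adjusted p = 0.000203), Pes1 by -0.56 ± 0.09 (SE, adjusted p = 0.000276) and Imp4 by -0.47 ± 0.08 (SE, adjusted p = 0.000321). These 5 were also lower with TMM scaling. The call on Myc was lost as given above, and those on Gnl3, Nip7 and Rrp12 were lost without F/F DSS 3, F/F DSS 4, DIEC DSS 1, DIEC DSS 2 or DIEC DSS 3 (adjusted p = 0.0562 to 0.151). The authors' deposited table, on its own normalisation, listed 6 members as lower here at its adjusted p under 0.05, beside 2.75% of its genes lower and 3.4% higher: Polr1a, Polr1b, Dkc1, Mybbp1a, Tbl3 and Nob1. With DSS, 24 members in the authors' deposited table were lower and 1 higher in F/F colon (15.0% and 15.2% of genes) and 33 lower and none higher in DIEC colon (15.3% and 15.0%), while with the deletion in naive colon that table listed none as changed (1.3% lower, 1.35% higher).

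The test of whether DSS acted differently in the genotypes called 8 members, each with a larger fall in DIEC colon, beside 3.34% of all genes; none was called in the other direction, beside 0.29%. Polr1b had the smallest adjusted p, with a difference of -0.90 ± 0.15 (SE, adjusted p = 0.00695). Npm1 followed at -0.56 ± 0.13 (SE, adjusted p = 0.0274), Pes1 at -0.54 ± 0.13 (SE, adjusted p = 0.0295), Wdr43 at -0.71 ± 0.17 (SE, adjusted p = 0.0311), Dkc1 at -0.67 ± 0.17 (SE, adjusted p = 0.0381), and Imp4 at -0.41 ± 0.11 (SE, adjusted p = 0.0449). Polr1c at -0.50 and Wdr75 at -0.73 completed the 8. The difference in Polr1b also passed with TMM scaling (-0.75, adjusted p = 0.0121), where it was the only member to pass (0.394% of genes lower, 0.241% higher), and in each fit that left out 1 library. The other 7 each failed with TMM scaling and without at least 1 library. Without F/F DSS 2 the count of members rose from 8 to 30, while the share of all genes called in that direction rose from 3.34 to 8.68%. Without any single library other than F/F DSS 2, DIEC naive 2, DIEC DSS 1 and DIEC DSS 4 the count fell to between 1 and 5. The share of all genes then fell to between 0.671 and 2.81%.

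F/F DSS 2 stood apart from the other F/F DSS pools for the members. It was the lowest of its group in 38 of 40, while F/F DSS 4 was the highest in 27. Relative to the mean over all libraries, the mean log2 level of the members was -0.23, -0.50, 0.05 and 0.12 in F/F DSS 1 to 4, against -0.67, -0.74, -0.69 and -0.55 in DIEC DSS. In the same F/F DSS libraries the 20 proliferation genes averaged -0.55, -1.49, -0.73 and 0.05. F/F DSS 2 was lowest and F/F DSS 4 highest in both, while F/F DSS 1 and F/F DSS 3 changed order. In DIEC DSS 1 to 4 the proliferation genes averaged -1.70, -1.29, -1.98 and -1.67. There DIEC DSS 2 had the lowest member level but the highest proliferation level. Without F/F DSS 2, 39 members were lower in DIEC than in F/F colon under DSS, beside 28.6% of all genes (34 and 26.0% with it).

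The 2 DSS comparisons share no library and can be set against each other. All 28 members that fell in F/F colon also fell in DIEC colon, which is 28 of the 39 there. Since 39 of 40 fell in DIEC colon, a near-full overlap was set by that count. Over the 40 members the log2 changes of both genotypes went together with Pearson's r of 0.911 and Spearman's rho of 0.867, a description over genes of the same libraries. In 39 of 40 members the change was more negative in DIEC colon, where the median difference over all genes was -0.16.

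Myc's partners and competitors did not all follow it. Mycl, a Myc relative, fell by 0.69 ± 0.13 (SE, adjusted p = 0.00027) in F/F colon and by 1.36 ± 0.13 (adjusted p = 8.12e-08) in DIEC colon. Max, with which Myc binds DNA, rose by 0.41 ± 0.10 (adjusted p = 0.00174) and 0.46 ± 0.10 (adjusted p = 0.000434). Mnt, a repressor that competes for Max, rose by 0.53 ± 0.11 (adjusted p = 0.000791) and 0.46 ± 0.11 (adjusted p = 0.0018). Mxd3 and Mga, of the same network, fell in both genotypes, and Mxd4 fell in DIEC colon. Mxd3 changed by -2.103 ± 0.37 (adjusted p = 0.000188) in F/F and by -2.599 ± 0.37 (adjusted p = 1.13e-05) in DIEC colon. Mga changed by -0.411 ± 0.078 (adjusted p = 0.000303) and -0.801 ± 0.078 (adjusted p = 1.06e-07). Mxd4 changed by -0.624 ± 0.14 (adjusted p = 0.000945) in DIEC colon. These directions were the same with TMM scaling. Of the 12 genes of the network 3 rose and 3 fell in F/F colon, where 16.3% of all genes rose and 28.5% fell. In DIEC colon 3 rose and 4 fell, where 12.3% of all genes rose and 40.0% fell. Whether the 12 differ from other genes was not tested. None passed with the deletion in naive colon (1.41% of all genes higher, 0.821% lower). In DSS colon 6 of the 12 were lower in DIEC (26.0% of all genes). In the other direction 1, Mxd1, a repressor that also pairs with Max, was higher (3.28%). With TMM scaling 3 were lower (7.21%) and 2 higher (6.53%).

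Most other genes of the same pathway also fell with DSS. Of 92 further ribosome biogenesis genes 55 fell and 3 rose in F/F colon, where 28.5% of all genes fell and 16.3% rose. In DIEC colon 86 fell and 2 rose, where 40.0% of all genes fell and 12.3% rose. Their median log2 changes were -0.42 and -0.85, beside -0.11 and -0.24 over all genes. With TMM scaling 49 and 68 fell (22.9% and 26.6% of all genes), and 6 and 5 rose (22.4% and 24.8%). Nol8, a nucleolar protein, fell by 0.94 ± 0.11 (adjusted p = 2.33e-06) and 1.32 ± 0.11 (adjusted p = 1.34e-08). Pno1, a late small subunit factor, fell by 0.83 ± 0.10 in F/F colon (adjusted p = 6.49e-06). In DSS colon 74 were lower in DIEC (26.0% of all genes), and 24 with TMM scaling (7.21%). Nat10, an RNA acetyltransferase, was lower there by 0.70 ± 0.09 (adjusted p = 4.55e-05). In naive colon Eif6, which keeps the subunits apart, was lower by 0.36 ± 0.09 (adjusted p = 0.0267, with TMM scaling 0.0659). The other 91 did not pass, where 0.821% of all genes were lower and 1.41% higher.

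Of 79 ribosomal protein genes 47 fell in F/F colon (28.5% of all genes) and 69 in DIEC colon (40.0%), with medians of -0.44 and -1.03. Under DSS 53 were lower in DIEC (26.0%). With TMM scaling the counts were 41, 63 and 32, beside 22.9%, 26.6% and 7.21% of all genes. Rpl22 fell by 1.25 ± 0.10 (adjusted p = 1.13e-08) in DIEC colon. Ribosomal protein genes have many processed copies, so their single values are uncertain. Of 25 genes of growth known to respond to Myc 20 fell and 1 rose in F/F colon (28.5% and 16.3% of all genes). In DIEC colon 22 fell and 1 rose (40.0% and 12.3%). With TMM scaling 16 fell and 2 rose in F/F colon (22.9% and 22.4%), and 20 fell and 3 rose in DIEC colon (26.6% and 24.8%). Cdk4, a kinase of cell cycle entry, fell by 0.99 ± 0.11 (adjusted p = 1.89e-06) and 1.59 ± 0.11 (adjusted p = 3.89e-09). Under DSS 14 of the 25 were lower in DIEC (26.0% of all genes) and 11 did not pass. With TMM scaling 7 were lower (7.21%). Paics, an enzyme of purine synthesis, was lower in DIEC under DSS by 0.97 ± 0.10 (adjusted p = 4.04e-06). In naive colon the deletion changed none of the 79 or of the 25, where 0.821% of all genes were lower and 1.41% higher.

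**Figure D4:**
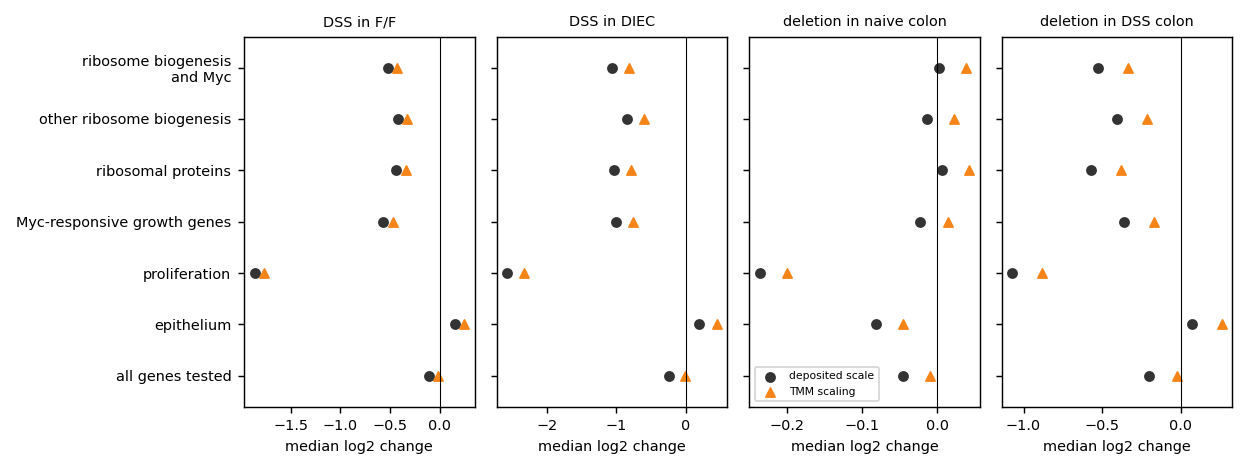
Median log2 change (horizontal axes, their ranges set per panel) of the members, of 5 other gene lists and of all genes tested, in 4 comparisons, under the deposited scaling (circles) and TMM scaling (triangles). With DSS in F/F and DIEC colon the members, at -0.52 and -1.07, lie between all genes, at -0.11 and -0.24, and the proliferation genes, at -1.86 and -2.57.

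Markers of dividing cells fell as well. All 20 proliferation genes fell with DSS in F/F colon (28.5% of all genes) and in DIEC colon (40.0%), with median log2 changes of -1.86 and -2.57. With TMM scaling all 20 fell too (22.9% and 26.6%). In DSS colon 15 of the 20 were lower in DIEC (26.0% of all genes), and 3 with TMM scaling (7.21%). Their summed share of reads went from 0.0891 to 0.150% (F/F naive) down to 0.0169 to 0.0448% (F/F DSS), and from 0.0836 to 0.112% (DIEC naive) down to 0.0123 to 0.0180% (DIEC DSS). None of the 20 was at 0 in a group. Of 11 crypt stem markers 8 fell and 1 rose in F/F colon (28.5% and 16.3% of all genes), and 9 fell in DIEC colon (40.0%). Olfm4 was at 0 in both DSS groups.

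The summed epithelial markers did not fall with the members. They held 2.32 to 2.89% of reads without DSS and 2.69 to 2.79% with it in F/F colon, and 2.34 to 2.82% without and 2.90 to 3.26% with it in DIEC colon. Of the 15, 6 rose and 3 fell with DSS in F/F colon, and 6 rose and 2 fell in DIEC colon. For these and the counts below, 16.3% of all genes rose and 28.5% fell with DSS in F/F colon. In DIEC colon 12.3% rose and 40.0% fell. Of 10 smooth muscle markers 9 rose in F/F and 10 in DIEC colon, and their share went from 0.773 to 1.02% to 1.05 to 1.31% in F/F and from 0.656 to 0.761% to 1.04 to 1.28% in DIEC colon. Of the other cell types listed, 7 of 10 macrophage markers and 4 of 9 of plasma and B cells fell with DSS in each genotype. So did 6 (F/F) and 5 (DIEC) of 7 adipocyte markers, beside 28.5% (F/F) and 40.0% (DIEC) of all genes. Of the pancreatic acinus 7 of 8 fell in each genotype. Its share varied between naive libraries, from 0.0426 to 0.413% in F/F and from 0.0651 to 2.00% in DIEC colon. Of 9 markers of enteric neurons and glia, 4 rose in F/F and 6 in DIEC colon, and none of 8 T and NK cell markers passed. Of 7 neutrophil markers 1 rose and 2 fell with DSS in F/F colon, where Retnlg was at 0 under DSS, and 3 rose and 2 fell in DIEC colon. Under DSS 3 of the 7 were higher with the deletion (3.28% of all genes). There the summed share of the 7 was 0.0742 to 0.111% of reads, against 0.0239 to 0.0391% in F/F colon. In naive colon that share was 0.0228 to 0.0482% in DIEC and 0.0154 to 0.0226% in F/F mice, and none of the 7 passed. The part of these cell type shifts in the falls of the members was not tested.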

How the data were processed

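RNA from colon tissue was measured in 16 libraries of 4 groups, 3 mice pooled in each. Per the submitters' processing notes, bcl2fastq, STAR 2.2.0c and HOMER 4.9 were used and mm10 is named as the genome. Per the file headers, raw reads were counted by HOMER over mm9 exons with 1 gene model kept for each gene and a strand option set. The TruSeq kit in the labels' protocols is unstranded as sold, so genes with overlapping exons on opposite strands are uncertain. In GENCODE M21 this concerns 18 of the 40 members. They are Polr1a, Nop56, Dkc1, Nhp2, Mybbp1a, Nop14, Wdr43, Rrp9, Heatr1, Tbl3, Imp4, Tsr1, Bysl, Bop1, Pes1, Wdr12, Rrp1b and Gnl3. Positions of genes are printed as in the table, as mm9.

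The deposited signal values are counts that the authors rescaled, with 1 factor for each library, to sums of 26554078 to 26554094. A read was worth 0.765 to 1.33 in a library, and 100% of values lay within 0.011 of a whole number of reads, so reads were recovered. The deposited log2 fold changes and p-values of the authors' deposited table are used only where named.

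Values were tested as log2(value + 1) with limma 3.58.1 (empirical Bayes with trend and robust options) in R 4.3.3, with one mean per group over all 16 libraries. The test covered 18267 of 24421 genes, those reaching a value of 1 in 4 or more libraries, and p-values were Benjamini-Hochberg adjusted over them in each of 5 comparisons. Alternatives were TMM scaling, pseudocounts of 0.5 and 5, other filters, only the groups compared, the replicate number as a block, voom, edgeR 4.0.16 and DESeq2 1.42.0 on the recovered reads (15695 genes), leaving out each library, leaving out both libraries richest in pancreatic reads (F/F naive 4 and DIEC naive 1), and a fold of at least 1.5. The fitting script was tested on simulated data.

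The members and gene lists were chosen with earlier results of these data known. Values in every library are given for Myc and, per role, for the members with the smallest adjusted p in each comparison of 2 groups, and for the 6 smallest in the interaction. Promoter windows are from RefSeq (GRCm38.p6), and Myc, Fbl, Npm1, Rrp12, Tbl3, Bop1 and Rrs1 were not matched there.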

Additional observations from a re-analysis of the deposited data

Results flagged for a closer look

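In each of the 4 groups the values of the 40 members were searched for a library far from the other 3, by a gap above Dixon's critical value for 4 values. Of 160 such groups 9 held one, and chance gives about 1 in 20, or 8. Polr1b was at 587 in DIEC naive 2, below the others, and Ncl at 4535 in DIEC DSS 2, also below. Nop14 was at 769 in F/F naive 3. Heatr1 was at 454 in DIEC DSS 4, and Tsr1 at 2142 in DIEC DSS 3, above the other libraries of that group. In F/F naive 2, Bysl was low at 348, Nop2 was at 919 and Pes1 was high at 1360.1. Pes1 was also high in DIEC naive 3, at 1233.

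The response to DSS differed between the genotypes by the interaction term of limma for 8 members, each with a larger fall in DIEC colon. The log2 difference was -0.90 for Polr1b, -0.50 for Polr1c, -0.67 for Dkc1, -0.56 for Npm1, -0.71 for Wdr43, -0.73 for Wdr75, -0.41 for Imp4 and -0.54 for Pes1. With TMM scaling Polr1b alone passed. F/F DSS 2, the lowest library of its group in 38 of 40 members, bears on this count: without it 30 members passed, while the share of all genes called in that direction went from 3.34 to 8.68%.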

How the results depend on the processing

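No change of a member that passed turned its sign under any of the settings run. For DSS in F/F colon the counts of 28 lower and 1 higher became 18 and 0 with a fold of at least 1.5. That setting called 13.8% of all genes lower and 5.12% higher. The higher call was also lost (0) without both pancreas-rich libraries, where 15.4% of all genes rose. Leaving out single libraries gave 25 to 31 lower and 0 to 1 higher, beside 25 to 29.1% and 13.4 to 16.8% of all genes. For DSS in DIEC colon the count of 39 stayed at 34 or above, and at 38 to 39 without single libraries. Over all genes the share called lower was 24.5 to 48.6%, and 37.5 to 40.2% without single libraries. The naive deletion gave 0 under every setting. For the deletion in DSS colon, with the share of all genes called lower in brackets, the count was 34 (26.0%). It became 19 (7.21%) with TMM scaling and 14 (6.87%) with a fold of at least 1.5. It was 18 (7.81%) with voom, 22 (8.55%) with edgeR and 24 (9.51%) with DESeq2. Without single libraries the count ran from 30 to 39 and the share from 19.4 to 28.6%. For the interaction the count of 8 (3.34% of all genes) became 1 with TMM scaling (0.394%), voom (0.389%) and edgeR (0.471%). It was also 1 (0.609%) without both pancreas-rich libraries. It was 2 (1.77%) with DESeq2, 4 (1.85%) with a fold of at least 1.5 and 14 (6.5%) with the filter at 50. Without single libraries the count ran from 1 to 30 and the share from 0.671 to 8.68%. The cause was not tested, apart from what each setting does by construction.

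Over 24 same-numbered pairs of libraries the correlation of deviations from the group means ran from -0.148 to 0.232, with 2 above 0.1 and a median of -0.023. The 2 were F/F DSS 1 with DIEC DSS 1 (0.232) and F/F DSS 2 with DIEC DSS 2 (0.212). Pairs of unlike number ran from -0.242 to 0.159, with a median of 0.0055, and 5 of 16 libraries correlated best with their own number. Weak correlations of pools cannot settle whether the replicate numbers pair the libraries. With the replicate number as a block, 31 members were lower (29.6% of all genes) and 1 higher (17.6%) with DSS in F/F colon. In DIEC colon 39 were lower with DSS (41.2%). None passed with the naive deletion, and 39 were lower with the deletion in DSS colon (28.6%). In the interaction 22 were lower, where the share of all genes called lower went from 3.34 to 6.22%.

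Every member had at least 61 reads in every library. Pools hide the spread between mice, and the strand and build doubts bear on genes with overlapping neighbours.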
